A study of Rattus norvegicus with 15 samples.

Results

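The 8 genes described here, Cxcl14, Ltc4s, Pmm1, Ugt2b1, Med14, Ptprt, Ccdc80 and Acbd7, were among the 13 genes furthest from control by p in the liver of old rats whose mothers had been calorie restricted in pregnancy and suckling. They are 8 of 14506 named genes measured, each read from the probe set with the highest mean over all arrays. The members were chosen by the smallest limma p for day 450 IPCR against control, so that difference is given below as a description and is not tested. The questions left to the data are whether the same shift was already there at weaning and whether restriction in pregnancy alone came with it.

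Liver RNA of male Sprague-Dawley rat offspring was hybridised to Affymetrix Rat Gene 1.0 arrays, with 3 arrays in each of 5 groups and 1 offspring per array. Control mothers were fed normally in pregnancy and suckling, and their offspring were sampled at day 21 and day 450. IPCR mothers had a 50% cut in calories from embryonic day 11 to 21 and again from postnatal day 1 to 21, and their offspring were also sampled at both ages. IUCR mothers had the 50% cut from embryonic day 11 to 21 only, and their offspring were sampled at day 450 alone. The replicates are described as littermates, without the number of litters, so the p-values measure only the spread between these samples.

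The 8 genes have different jobs. Cxcl14 is a secreted chemokine and Ccdc80 a secreted matrix protein, Ltc4s makes the inflammatory lipid leukotriene C4 from leukotriene A4 and glutathione, and Acbd7 belongs to the acyl-CoA binding proteins. Pmm1 is a phosphomannomutase, which interconverts mannose 6-phosphate and mannose 1-phosphate on the way to GDP-mannose, the sugar donor of protein glycosylation. Ugt2b1 is a liver UDP-glucuronosyltransferase, which makes drugs and steroids soluble by adding glucuronic acid. Med14 is the scaffold subunit of Mediator, the complex that links transcription factors to RNA polymerase II, and Ptprt is a receptor-type tyrosine phosphatase.

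Values are log2 intensities, and differences are between group means on that scale. Array medians ran from 7.11 to 7.24 and lower quartiles from 6.0 to 6.16. The interquartile range was 2.29 to 2.45 on the day 450 IPCR arrays and 2.19 to 2.31 on the day 450 control arrays. With that range as a covariate, a fit added after seeing the data, the day 450 IPCR differences of the 8 genes were 1.03 for Cxcl14, 0.97 for Ugt2b1, 0.73 for Med14, 0.42 for Ccdc80, -0.58 for Acbd7, -0.65 for Pmm1, -0.68 for Ptprt and -1.41 for Ltc4s. The 8 hepatocyte markers averaged 13.36 to 13.85 on all 15 arrays. Array IUCR B stood apart in sex-biased genes, with male-biased Cyp3a2 at 9.99 against 13.24 and 12.59 on IUCR A and C, so IUCR results are also given without it. Control C leaned the same way less far, with Cyp3a2 at 11.46 against 12.84 and 12.93 on day 450 control A and B. Female-biased Cyp2c12 read 12.01 on IUCR B against 8.98 and 9.84 on IUCR A and C. On control C it read 10.57 against 9.86 and 9.34 on control A and B. Sult2a1, Sult2a2, A1bg and Prlr were also highest of their group on both arrays, and Cyp2a1 on IUCR B only. Female-biased Hao2 went the other way and was lowest on both arrays, at 9.41 on IUCR B and 9.98 on control C. Without control C the day 450 IPCR differences of the 8 genes ran from -1.30 for Ltc4s to 0.94 for Cxcl14. In whole liver, fewer cells of a type and less RNA per cell cannot be told apart.

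In the comparison that chose them, the 8 genes held ranks 1, 2, 3, 4, 5, 8, 12 and 13 by p, from 2.42e-06 for Cxcl14 to 4.66e-05 for Acbd7. Ranks between them belong to Or4c107, Galr3, Or1o11b, Junb and Med13, which the list does not include. The genes just inside the end of the list were Ccdc80 (0.46) and Acbd7 (-0.58), and just outside it were Echdc1 (0.79), Afg2a (0.44) and Zfp131 (0.45). By the limma adjusted p, 5 of the 8 lay below 0.05 (Cxcl14, Pmm1, Ugt2b1, Med14 and Ltc4s), and these are all 5 genes called among 14506, or 0.0345%. That count is set by single arrays: it is 0 without control A, IPCR A or IPCR C, 3 without control B or control C, and 80 without IPCR B. The genes called change too. Of these 5, 0 stayed called without control B, 1 without control C and 5 without IPCR B. All 8 members had 3 IPCR values beyond all 3 control values, against 17.7% of all genes, and since this contrast made the list nothing is read from that.

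**Figure D1:**
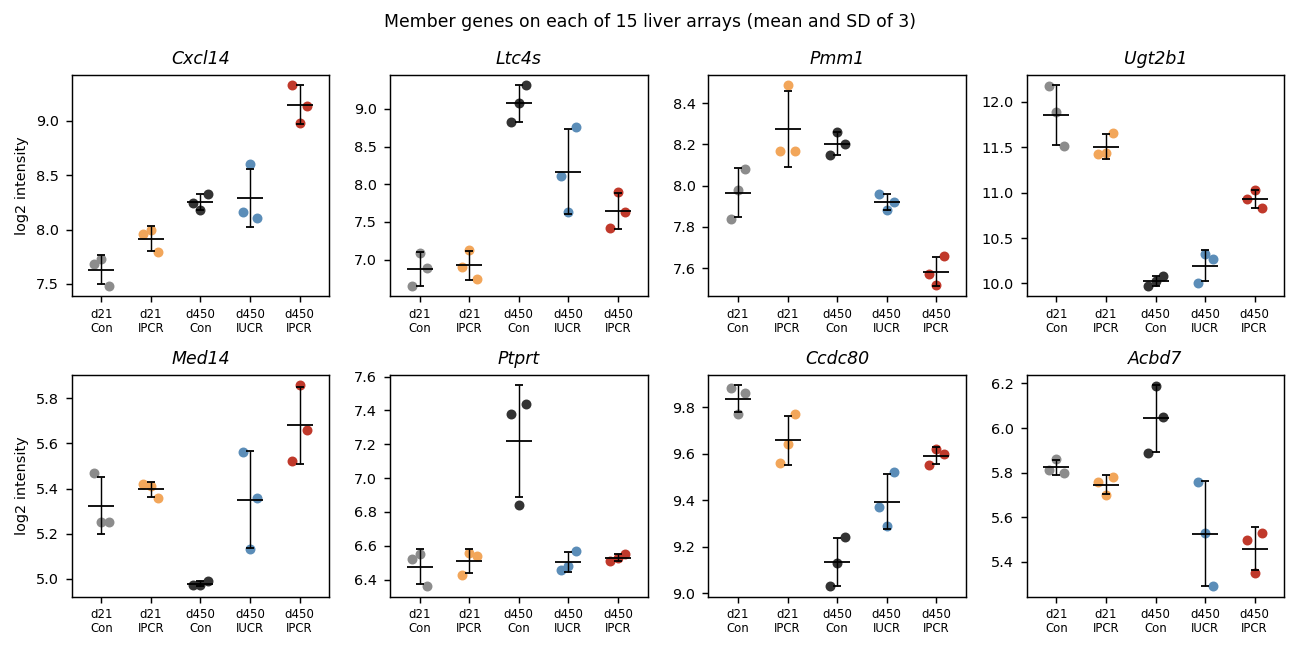
Log2 intensity (vertical axis) of the 8 genes on each array, by group (horizontal axis: control, IUCR and IPCR offspring at day 21 or day 450). Points are arrays, and bars give the mean and SD of 3. In Cxcl14 and Ugt2b1 only the IPCR arrays stand away from the other day 450 arrays, while in Ptprt and Acbd7 IUCR and IPCR arrays lie together below control.

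Among the secreted proteins, Cxcl14 was highest in day 450 IPCR liver. Its values there were 9.33, 8.98 and 9.13, against 8.24, 8.18 and 8.33 in day 450 control and 8.16, 8.60 and 8.11 in IUCR. Every IPCR value lay above every control and IUCR value and the IUCR and control values overlapped. The mean was 9.15 (SD 0.18, n = 3) against 8.25 (SD 0.08, n = 3), a difference of 0.90 or 1.86-fold. The highest IUCR value belongs to array B, and without it the IUCR mean lay 0.11 below control instead of 0.04 above. At day 21 Cxcl14 was 7.68, 7.73 and 7.48 in control and 7.96, 8.0 and 7.79 in IPCR, so its level was lower in both young groups than in any adult group.

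Ccdc80 was lower in all adult groups than in day 21 control, and least so in IPCR. Day 450 control values were 9.03, 9.13 and 9.24, IUCR values 9.37, 9.29 and 9.52, and IPCR values 9.55, 9.62 and 9.60. The 3 groups did not overlap, with IUCR between control and IPCR. The difference from control was 0.46 (1.37-fold) in IPCR and 0.26 in IUCR, or 0.31 without IUCR B. At day 21 the order of control and IPCR was the other way round, at 9.88, 9.77 and 9.86 in control and 9.56, 9.64 and 9.77 in IPCR. These groups all but touched, the lowest control array lying 0.0017 above the highest IPCR array, and the day 21 IPCR values overlapped those of day 450 IPCR.

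Of the lipid-related genes, Ltc4s had the largest difference of the 8. Day 450 control values were 8.83, 9.07 and 9.32, and IPCR values 7.42, 7.90 and 7.63. The IPCR mean of 7.65 (SD 0.24, n = 3) and the control mean of 9.07 (SD 0.25, n = 3) give a difference of -1.42, or 2.68-fold. IUCR was the most scattered group, at 8.11, 7.63 and 8.76, below all control values and overlapping IPCR. Its difference from control was -0.91, and -0.64 without IUCR B, the lowest of the 3. In day 21 liver Ltc4s was dimmer in both groups, at 6.65, 7.09 and 6.89 in control and 6.90, 7.13 and 6.75 in IPCR. From day 21 to day 450 the mean was 2.20 higher in control (4.58-fold) and 0.73 higher in IPCR (1.65-fold), comparisons that reuse the day 450 arrays behind the choice of the gene.

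Acbd7 was lower in both restricted groups at day 450, with control at 5.89, 6.19 and 6.05, IUCR at 5.76, 5.53 and 5.29, and IPCR at 5.50, 5.35 and 5.53. IUCR and IPCR values overlapped each other and neither reached control. The difference from control was -0.58 (1.5-fold) in IPCR and -0.51 in IUCR, or -0.52 without IUCR B. Its signal was under the array's own lower quartile on 14 of 15 arrays, a dim signal in which background can weigh heavily. Day 21 values were 5.81, 5.86 and 5.80 in control and 5.76, 5.70 and 5.78 in IPCR, all below adult control and above adult IPCR, with the IPCR ones overlapping IUCR.

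Of the metabolic enzymes, Ugt2b1 was higher in IPCR than in any other adult group. Day 450 control values were 9.97, 10.03 and 10.08, IUCR values 10, 10.32 and 10.27, and IPCR values 10.93, 11.03 and 10.83. The IPCR values stood clear of both groups, and IUCR and control overlapped. The mean was 10.93 (SD 0.10, n = 3) against 10.03 (SD 0.05, n = 3), a difference of 0.90 or 1.87-fold, and IUCR stood 0.17 above control, or 0.11 without IUCR B. In day 21 liver the gene was brighter still, at 12.17, 11.89 and 11.51 in control and 11.42, 11.44 and 11.66 in IPCR. The day 450 IPCR level thus lay between adult control and the young rats. Near-identical Ugt2b genes may share its probes.

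Pmm1 has 2 probe sets, and they differ at day 450. On the brighter of them control values were 8.15, 8.26 and 8.20, IUCR values 7.96, 7.88 and 7.92, and IPCR values 7.57, 7.52 and 7.66. These 3 groups did not overlap, and the difference from control was -0.62 (1.54-fold) in IPCR and -0.28 in IUCR, or -0.26 without IUCR B. On the other probe set control was at 7.94, 7.79 and 7.98, IUCR at 7.86, 7.74 and 7.74, and IPCR at 7.79, 7.81 and 7.90. There the groups overlapped, with differences of -0.071 in IPCR and -0.12 in IUCR. At day 21 both probe sets were higher in IPCR, by 0.31 on the brighter one (7.84, 7.98 and 8.08 in control, 8.17, 8.49 and 8.17 in IPCR) and 0.32 on the other (7.67, 7.65 and 7.83 in control, 8.03, 8.13 and 7.93 in IPCR). The day 450 difference of Pmm1 is therefore a difference of 1 of its 2 probe sets.

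**Figure D2:**
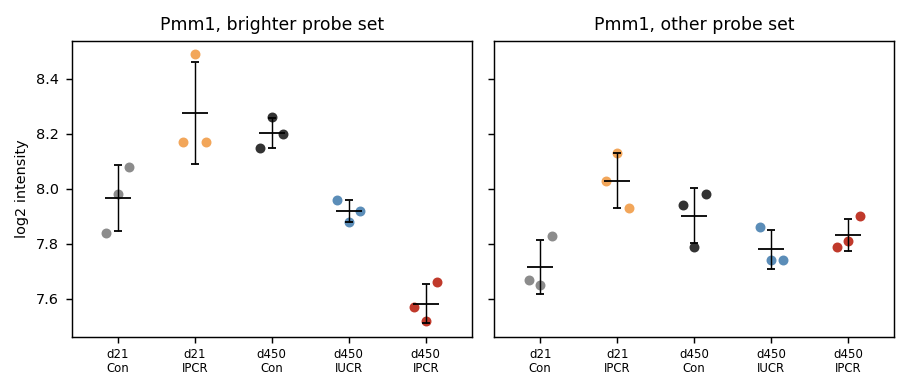
Log2 intensity (vertical axis) of the 2 Pmm1 probe sets by group (horizontal axis), with points for arrays and bars for the mean and SD of 3. Both probe sets are higher in IPCR than in control at day 21, and the brighter of them alone shows day 450 IPCR (7.52 to 7.66) apart from day 450 control (8.15 to 8.26).

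Med14 was higher in adult IPCR liver and lowest in adult control. Day 450 control values were 4.97, 4.97 and 4.99, IUCR values 5.56, 5.13 and 5.36, and IPCR values 5.52, 5.86 and 5.66. Both restricted groups lay above control and overlapped each other. The difference was 0.71 (1.63-fold) in IPCR and 0.38 in IUCR, or 0.48 without IUCR B. The control arrays lay close together (SD 0.01, n = 3, against 0.17 in IPCR), and a small spread makes the p that chose the gene smaller. All 15 arrays put Med14 under their own lower quartile, so background can weigh heavily here too. Day 21 values were 5.47, 5.25 and 5.25 in control and 5.42, 5.41 and 5.36 in IPCR, above adult control.

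Ptprt set adult control apart from every other group. Day 450 control values were 7.38, 6.84 and 7.44, while IUCR was at 6.46, 6.48 and 6.57 and IPCR at 6.51, 6.53 and 6.55. Young liver overlapped the restricted adults, at 6.52, 6.55 and 6.36 in control and 6.43, 6.56 and 6.54 in IPCR. The 4 groups other than adult control overlapped as neighbours in order of their means, and all lay below adult control. The difference from control was -0.69 (1.61-fold) in IPCR and -0.72 in IUCR, or -0.71 without IUCR B, and control B lay nearest to the other groups.

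Beside the IPCR difference, that of IUCR was 104% of it for Ptprt, 87.9% for Acbd7, 64.0% for Ltc4s, 56.7% for Ccdc80, 53.2% for Med14, 45.9% for Pmm1, 19.1% for Ugt2b1 and 4.5% for Cxcl14. Leaving out IUCR B changed these to 102%, 88.2%, 45.1%, 68.6%, 68.7%, 42.4%, 12.3% and -12.6%. Both differences use the same 3 control arrays, which also chose the genes, so the IUCR difference has no independent test here. The 3 IUCR values lay beyond all 3 control values in 6 of 8 members (not Cxcl14 or Ugt2b1), against 11.2% of all genes. They lay beyond all 3 IPCR values in Cxcl14, Pmm1, Ugt2b1 and Ccdc80, 4 of 8, against 11.2% of all genes for that comparison, and neither count is read as a result because the arrays are shared. Over all 14506 genes limma called 0 (0%) in IUCR against control at adjusted p below 0.05, with 1052 at an unadjusted p below 0.05.

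**Figure D3:**
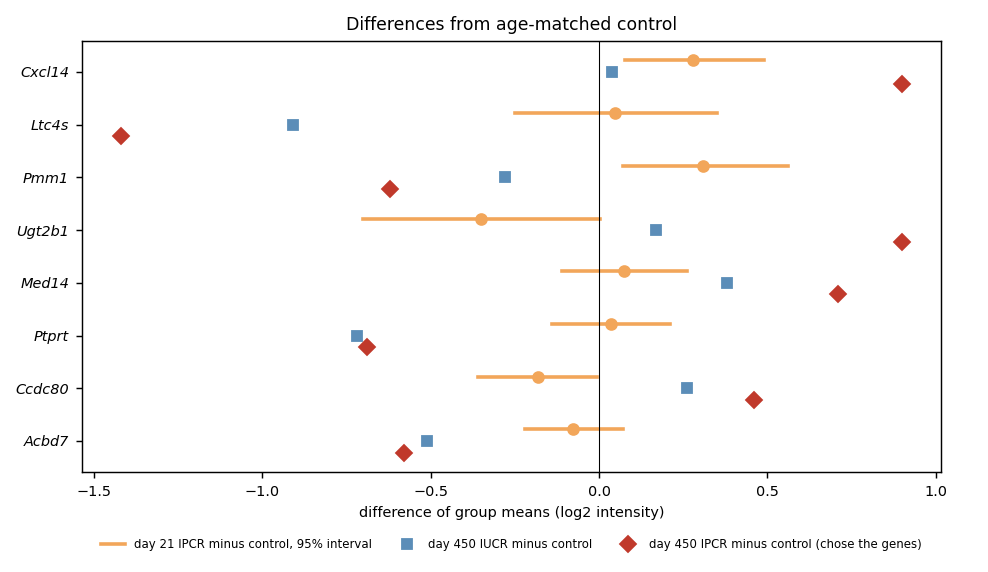
Differences of group means from control of the same age (horizontal axis, log2 intensity) for each gene (vertical axis). Circles with lines are day 21 IPCR with its 95% interval from limma, squares day 450 IUCR and diamonds day 450 IPCR, the difference that chose the genes. The diamonds are shown as a description. The distance from square to diamond is smallest for Ptprt (-0.72 and -0.69) and largest for Cxcl14 (0.04 and 0.90).

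The day 21 difference between IPCR and control took no part in the choice of the genes. The day 21 arrays did enter it in part, because the ranking fit pooled the spread of all 15 arrays. They also counted in the mean that picked each probe set. The day 21 SEs, intervals and p-values are therefore not fully independent of the choice. None of the 8 was called at day 21. With limma fitted on the 6 day 21 arrays and p adjusted over all genes, 1273 genes were called between IPCR and control (8.78%), against which 0 of 8 is read. Leaving out any array but IPCR C lowered that number to between 438 and 735. Before adjustment 3 of 8 members had p below 0.05, against 24.5% of all genes. Cxcl14 had the smallest p, with a difference of 0.28 (standard error (SE) 0.092, 95% interval 0.076 to 0.49, limma adjusted p = 0.0953), in the same direction as at day 450 and with no overlap of the arrays. Pmm1 differed by 0.31 (SE 0.11, interval 0.070 to 0.56, limma adjusted p = 0.112), opposite in direction to day 450. When all 15 arrays entered the limma fit Pmm1 was called (adjusted p = 0.0410), but that fit also uses the spread of the arrays that chose it.

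The other 6 members were closer to control at day 21 or less precisely measured. Ugt2b1 differed by -0.35 (SE 0.15, interval -0.70 to 0.0018, limma adjusted p = 0.206) and Ccdc80 by -0.18 (SE 0.077, interval -0.36 to -0.0049, adjusted p = 0.192), both opposite to day 450. Ltc4s stood at 0.048 (interval -0.25 to 0.35), Med14 at 0.074 (-0.11 to 0.26), Ptprt at 0.036 (-0.14 to 0.21) and Acbd7 at -0.076 (-0.22 to 0.072). The interval of Cxcl14 lay above 0, the side of its day 450 difference, those of Pmm1 and Ccdc80 lay on the other side of 0 from theirs, and the other 5 held 0. The sign was the same at both ages in 3 of 8 (Cxcl14, Med14 and Acbd7), against 40.1% of all genes, and the 2 comparisons share no array. The groups did not overlap at day 21 in 4 members (Cxcl14, Pmm1, Ccdc80 by the narrow gap above, and Acbd7), against 29.9% of all genes.

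The relatives and pathway partners of each member, from lists that leave the member out, held 0 genes called by limma in either adult comparison. Over all genes an unadjusted p below 0.05 was found for 2143 of 14506 in IPCR and 1052 (7.25%) in IUCR. In the lists unadjusted p was below 0.05 in IPCR for 2 of 32 chemokines, 2 of 18 chemokine receptors, 1 of 14 leukotriene genes, 4 of 26 mannose and glycan genes, 3 of 10 glucuronidation genes, 5 of 25 Mediator subunits, 1 of 16 receptor phosphatases, 3 of 27 matrix genes and 2 of 9 acyl-CoA binding genes. In IUCR the counts, in that order of lists, were 1, 3, 1, 1, 0, 1, 2, 1 and 0. The median differences of these lists in IPCR ran from -0.04 to 0.21, against 0.02 over all genes. The mean level of 4 lists was higher on every IPCR array than on every control array: 8.42 to 8.51 against 8.30 to 8.41 for the Mediator subunits, 9.18 to 9.31 against 8.44 to 8.98 for the glucuronidation genes, 7.85 to 7.89 against 7.79 to 7.84 for the receptor phosphatases and 9.73 to 9.80 against 9.65 to 9.72 for the acyl-CoA binding genes. In the other 5 lists the groups overlapped. Over all genes 1738 of 14506 were higher without overlap in this comparison and 836 were lower. No such share was worked out for list means, so the 4 lists are described and not read as a result.

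Among the chemokines Cxcl12, which guides cells through the receptor Cxcr4, came nearest to Cxcl14. It was 11.85, 11.76 and 11.90 in day 450 IPCR against 11.17, 11.16 and 11.24 in control and 11.62, 10.77 and 11.39 in IUCR, a difference of 0.65 (SE 0.17, limma adjusted p = 0.153) that did not pass. Cxcr4 differed by -0.02. In the leukotriene list Alox5, the 5-lipoxygenase that starts the pathway, differed by -0.21, its partner Alox5ap by -0.01, Lta4h by 0.14 and Mgst2, which can also make leukotriene C4, by 0.05, and none passed. Pmm2, the other phosphomannomutase, differed by 0.09 with an SE of 0.07. In the Mediator list Med13, which ties the kinase module to the core complex, was highest at 0.43 (SE 0.08, limma adjusted p = 0.0502), Med1 stood at 0.25 and Med17 at 0.07. Ptprk and Ptpru, phosphatases of the same subfamily as Ptprt, differed by 0.10 and -0.15, Srpx, whose protein shares a domain type with Ccdc80, by 0.05, and Dbi, the main acyl-CoA binding protein, by 0.07.

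Ugt2b, a close relative of Ugt2b1, differed widely between single rats. It read 12.17, 5.90 and 12.25 in day 450 control, 12.46, 12.65 and 7.58 in IUCR and 12.84, 12.39 and 13.01 in IPCR. Array control B and array IUCR C thus lay far below the other 7 adult arrays, while on the same arrays Ugt2b1 read 10.03 and 10.27, inside or near its group. The Ugt2b difference of 2.64 between IPCR and control (SE 1.39, limma adjusted p = 0.387) did not pass. Ugdh, which makes the cofactor UDP-glucuronic acid, stood at 0.42 and Ugp2, which makes its precursor UDP-glucose, at 0.43, without passing.

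**Figure D4:**
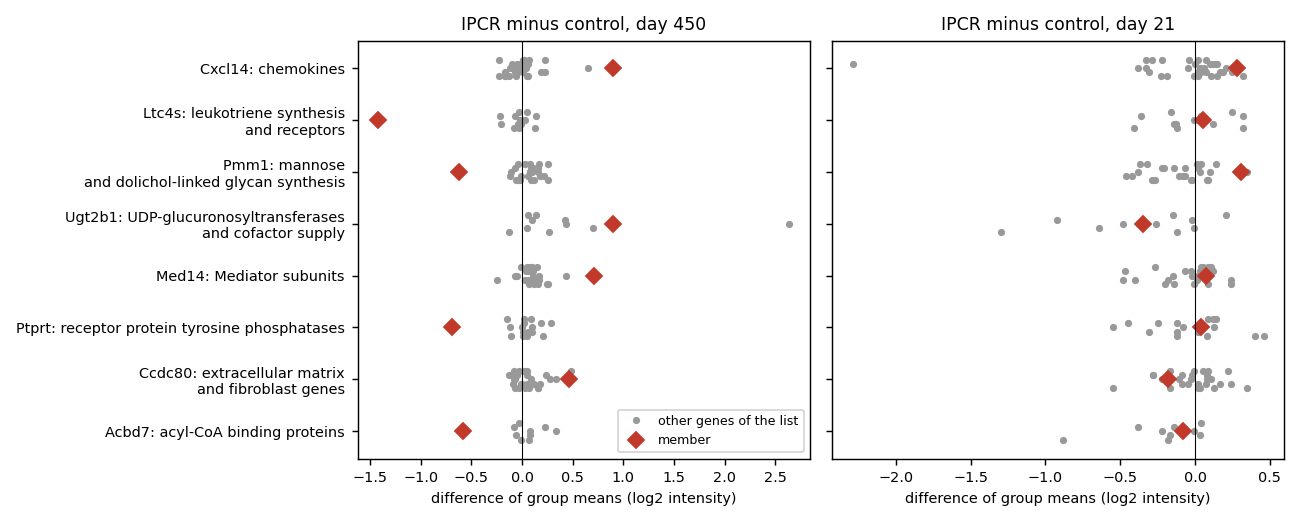
Difference between IPCR and control (horizontal axes, log2 intensity) for each member (diamonds) and the other measured genes of its list (grey points), at day 450 on the left and day 21 on the right, with a line for each list. At day 450 the members were picked for this difference and lie at or beyond the edge of their lists except for Ugt2b1, which Ugt2b exceeds at 2.64, and Ccdc80, which Lox exceeds at 0.48. At day 21 the members lie among their relatives.

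At day 21 the same lists held called genes even though the members were not among them. Over all genes 1273 of 14506 (8.78%) were called there, 376 higher and 897 lower, and each count below is to be read against that share. In the mannose and glycan list 5 of 26 fell and 0 rose, with Dolk, which makes dolichol phosphate, at -0.46 (SE 0.08), Gmppa at -0.42, Alg9 at -0.37 and Mpi, which makes the substrate of Pmm1, at -0.32. Ugdh fell by 0.92 (SE 0.14) and Ugt2b37 by 1.30 (SE 0.28) in the glucuronidation list, 2 of 10. In the chemokine list Cxcl13, a B cell attractant, fell by 2.29 (SE 0.22, limma adjusted p = 0.00108), Ccl9 fell by 0.38 and Cxcl17 rose by 0.32, and 0 of 18 receptors were called, with 1 at an unadjusted p below 0.05. Ltb4r2, a leukotriene B4 receptor, and Ggt1, which removes glutamate from leukotriene C4, each rose by 0.32, 2 of 14. Med4, Med28 and Med31 fell, 3 of 25, Ptprk and Ptprn fell and Ptprh and Ptprz1 rose, 4 of 16, Col14a1 fell by 0.55, 1 of 27, and Dbi fell by 0.88, 1 of 9. The list medians ran from -0.20 to 0.07, against 0.02 over all genes.

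Markers of the cell types that could carry these transcripts were examined beside them. For Ltc4s, which mast cells, eosinophils and macrophages make, the 12 mast cell, basophil and eosinophil markers averaged 6.14 to 6.24 on day 450 control arrays and 6.06 to 6.21 on IPCR arrays, and 5 of 12 were dimmer than the lower quartile of probe sets. The 8 macrophage markers averaged 9.25 to 9.66 in control and 9.06 to 9.41 in IPCR. For Ccdc80, a gene of stromal cells, the 8 stellate cell and fibroblast markers averaged 8.24 to 8.49 and 8.40 to 8.52, and the 27 other matrix genes 7.59 to 7.69 and 7.65 to 7.74. These ranges overlap between the groups, and limma called 0 markers of these 3 cell types at day 450 in IPCR against control, with 1 of 12, 0 of 8 and 2 of 8 at an unadjusted p below 0.05.

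Some other lists were lower on every adult IPCR array than on every control array, among them dim ones. As above, no share was worked out for such list means, and none here is read as a result. The 3 B cell markers averaged 6.48 to 6.75 in control, 6.24 to 6.31 in IUCR and 6.26 to 6.36 in IPCR. The 6 adipocyte and mesothelium markers averaged 6.94 to 7.03, 6.79 to 6.92 and 6.74 to 6.86, and the 6 neutrophil markers 6.13 to 6.18, 6.0 to 6.09 and 5.95 to 6.09. The 4 neuron and glia markers averaged 6.04 to 6.16, 5.84 to 6.08 and 5.90 to 6.0. Of these, 2 of 3 B cell, 2 of 6 neutrophil and 2 of 4 neuron and glia markers were dimmer than the lower quartile of probe sets. The part of these cells in the differences of the members was not tested. The 6 endothelial markers averaged 9.30 to 9.62 in control and 9.54 to 9.73 in IPCR, the 5 cholangiocyte markers 7.13 to 7.39 and 6.98 to 7.13, and the 7 male-biased liver genes 11.53 to 12.46 and 12.38 to 12.68. Limma called 0 genes of any of these lists in either adult comparison. At an unadjusted p below 0.05 in IPCR stood 2 of 3 B cell, 2 of 6 adipocyte and mesothelium, 0 of 6 neutrophil and 1 of 4 neuron and glia markers. So did 1 of 6 endothelial and 2 of 5 cholangiocyte markers and 0 of 7 male-biased genes. In IUCR the counts, in that order of lists, were 1, 1, 1, 1, 0, 0 and 0. These counts are to be read against the 2143 and 1052 of 14506 genes. Of the clock genes, the 5 of the BMAL1 arm averaged 7.77 to 7.94 in control, 8.0 to 8.45 in IUCR and 8.02 to 8.13 in IPCR. The 10 of the PER and DBP arm averaged 8.98 to 9.18, 8.70 to 8.96 and 8.97 to 9.42. In the BMAL1 arm both restricted groups lay above every control array, and in the other arm IUCR lay below every control array. Unadjusted limma p was below 0.05 for 2 of 5 and 2 of 10 of these genes in IPCR. In IUCR it was for 5 of 5 and 3 of 10, and 0 were called. Those of the BMAL1 arm did not share a direction in IUCR. Cry1 was lower (-0.29), while Bmal1, Npas2, Nfil3 and Clock were higher (1.02, 0.68, 0.30 and 0.28). At day 21 the arms differed far more: 4 of 5 genes of the BMAL1 arm fell and 8 of 10 of the other arm rose, with Bmal1 at -2.07 (SE 0.17), Per3 at 2.24 (SE 0.20) and Dbp at 2.19 (SE 0.17), each by limma at adjusted p below 0.05. Cry1 went against the rest of the BMAL1 arm at day 21 too, at 0.22, and was not called. The BMAL1 arm averaged 7.87 to 8.07 in day 21 IPCR against 8.71 to 8.81 in control. The other arm averaged 8.93 to 9.24 against 7.92 to 8.09. The labels give no hour of collection, so time of day and diet cannot be told apart.

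The stretch of 250 bases before the transcription start is shown for 4 members, taken from RefSeq on build GRCr8. Cxcl14 and Ugt2b1 are shown because IUCR overlapped control, and Ptprt and Acbd7 because IUCR and IPCR lay together. Each runs 5′ to 3′ on the strand of the gene. Capitals mark a GC box (GGGCGG) or a CCAAT box (CCAAT) on either strand.
Cxcl14, chr17:8322900-8323149, plus strand: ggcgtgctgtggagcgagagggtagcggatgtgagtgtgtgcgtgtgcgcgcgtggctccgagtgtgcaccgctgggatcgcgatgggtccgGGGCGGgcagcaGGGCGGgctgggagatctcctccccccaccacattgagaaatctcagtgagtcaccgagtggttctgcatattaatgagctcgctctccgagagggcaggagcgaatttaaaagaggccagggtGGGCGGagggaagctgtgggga
Ugt2b1, chr14:21378632-21378881, plus strand: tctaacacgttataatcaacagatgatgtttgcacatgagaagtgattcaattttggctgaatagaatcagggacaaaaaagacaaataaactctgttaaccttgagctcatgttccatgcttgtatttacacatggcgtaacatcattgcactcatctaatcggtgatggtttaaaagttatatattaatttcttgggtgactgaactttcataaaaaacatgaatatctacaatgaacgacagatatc
Ptprt, chr3:171707693-171707942, minus strand: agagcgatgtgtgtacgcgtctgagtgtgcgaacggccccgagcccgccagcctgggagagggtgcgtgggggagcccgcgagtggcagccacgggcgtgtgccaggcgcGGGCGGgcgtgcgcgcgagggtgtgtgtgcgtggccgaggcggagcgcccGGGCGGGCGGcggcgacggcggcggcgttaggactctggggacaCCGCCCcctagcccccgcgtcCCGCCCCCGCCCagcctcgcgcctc
Acbd7, chr17:79818449-79818698, minus strand: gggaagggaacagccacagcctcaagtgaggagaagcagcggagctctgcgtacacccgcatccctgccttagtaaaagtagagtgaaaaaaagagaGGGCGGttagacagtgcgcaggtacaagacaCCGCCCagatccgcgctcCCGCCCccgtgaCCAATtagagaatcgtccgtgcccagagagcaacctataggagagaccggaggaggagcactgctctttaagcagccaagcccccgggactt

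The promoters of all 8 members were set beside all rat promoters, and likeness among them was not tested. The share of G and C over the 250 bases was 63.2% in Cxcl14, 33.2% in Ugt2b1, 78.4% in Ptprt and 58.0% in Acbd7, with 50.4% in Ccdc80, 58.8% in Ltc4s, 68.4% in Pmm1 and 69.6% in Med14, against a median of 51.2% over 33469 rat promoters. A GC box was found in 5 of 8 (Cxcl14, Pmm1, Med14, Ptprt and Acbd7) and in 30.5% of all promoters, and a CCAAT box in Ltc4s and Acbd7 and in 34.0% of all. Searched on both strands, the E-box CACGTG (5.59% of all promoters), the D-box TTATGTAA (0.828%) and the RORE half-site AGGTCA (14.1%), letters read by clock factors, were in 0 of the 8 windows, as was TATAAA (12.9%). The glucocorticoid receptor half-site AGAACA was in Ltc4s alone and in 17.5% of all promoters. GC boxes overlap each other in Ptprt.

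Likeness of pattern was measured as the root mean square difference over the 15 arrays after each gene was centred on its own mean, and the closest genes by it are named. Nearest to Cxcl14 was Bhlhe41, a repressor within the clock, at 0.22, with means of 6.47 in day 450 control, 6.30 in IUCR and 7.01 in IPCR. Nearest to Ccdc80 were Sema6d at 0.11 and Arhgap5 at 0.12, and to Pmm1 Hcn2 at 0.13 and Cyp21a1 at 0.14. Med14 lay nearest to Tmem106b at 0.15 and to Zfp131 at 0.16, and Acbd7 to Usp44 at 0.14 and Bst1 at 0.15. Ptprt lay at 0.21 from Sertad1 and Cpvl. The nearest genes were furthest away for Ugt2b1, at 0.33 from Mest and 0.34 from Serpinh1, and for Ltc4s, at 0.49 from Oas1i and 0.50 from Tap1. These were also the members that varied most over the 15 arrays (SD 0.75 and 0.89). The distance grows with a gene's own spread, so distances are not compared between members. Mest, an imprinted growth gene, followed Ugt2b1 in its high level at day 21 (8.66 in control) and not in adult IPCR, where it stood at 7.18 against 7.19 in control. The second gene nearest to Cxcl14 was Bdh2, at 0.24.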

How the data were processed

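Affymetrix Rat Gene 1.0 arrays, 3 per group, measured liver RNA of 15 male rats. The deposited values are log2 intensities per probe set, made by the authors with RMA in Affymetrix Expression Console, per the submitters' processing notes, with versions not given in the sources used here. RMA puts the probe intensities of all arrays on 1 distribution, which can hide a shift common to most genes. The probe set values made from them still differed between arrays, with medians of 7.11 to 7.24 and interquartile ranges of 2.15 to 2.45. Raw intensities and scan dates were not used here, so batches were not tested, and 3 arrays a group limit the precision.

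Of 29215 probe sets, 15310 carried 1 gene symbol, 323 several and 13582 none in the platform annotation. Each of 14506 genes was read from its probe set with the highest mean over the 15 arrays. The members and the gene lists were chosen with earlier results of these data known. Genes named beside the 8 members are the next 3 by p, the 2 nearest in pattern to each member, up to 4 called genes a list and close relatives of the members.

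Group differences came from limma 3.58.1 in R 4.3.3, with Benjamini-Hochberg adjustment over all 14506 genes and a threshold of 0.05. Day 21 was fitted on its 6 arrays alone, because the day 450 arrays chose the members, and the day 450 comparisons on the fit that gave the ranking. The computation was tested on simulated data. Promoter sequence came from RefSeq, build GRCr8, matched by symbol for 8 of 8 members. Alternatives were the replicate block, other normalizations and filters, other probe set rules and leaving out each array. A fit with array interquartile range as covariate was added after seeing the data.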

Additional observations from a re-analysis of the deposited data

Results flagged for a closer look

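In 2 members every IPCR array lay on one side of control at day 21 and on the other at day 450. The effect of Pmm1 was 0.31 at day 21 and -0.62 at day 450, a difference of effects of -0.93 on the log2 scale. For Ccdc80 at day 21 the groups were only 0.0017 apart at their closest arrays. The effect of Ccdc80 was -0.18 at day 21 and 0.46 at day 450, a difference of 0.64. The difference itself was not tested, because the day 450 arrays chose both genes. All 8 members lay without overlap at day 450 by their choice, so the base to set beside them is the genes that also did. Of 2574 such genes, 643 lay without overlap in the opposite direction at day 21 and 259 in the same direction. Over all 14506 genes these are 4.43% and 1.79%, but those shares are not the base for the members. The 2 of 8 members are set beside 643 of 2574 and are not read as a result. The second Pmm1 probe set shows the day 21 difference (0.32) and a day 450 difference of -0.071 with overlapping groups. Groups of 3 arrays were not tested for outlying samples.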

How the results depend on the processing

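Under the alternatives 266 values stayed close: counts within 1.5 times, day 21 members in direction and side of the threshold, and day 450 members, which have no test, within 1 SD of arrays. Among the last, Cxcl14 in IUCR is near 0 and turned to -0.11 without IUCR B. The 5 genes called in day 450 IPCR became 0 with the replicate block, 15 with a trended robust fit, 15 with genes above the median signal only, 2 with only the groups compared, 0 with the interquartile range as a covariate (chosen after seeing the data; the 8 differences then ran from -1.41 to 1.03, each within 1 SD), and 0 to 80 when an array was left out. Of those 5 genes, 4 stayed called with the trended robust fit, 4 with genes above the median signal only and 2 with only the groups compared. The 1273 genes called at day 21 became 1031 with the replicate block and 438 to 1551 when an array was left out. The 0 genes in IUCR became 0 to 2 when an array was left out. Deviations of same-lettered arrays from their group means correlated at -0.06, -0.03 and 0.07 at day 21. At day 450 they correlated at 0.01, 0.03 and -0.26 for IPCR and control and at 0.20, -0.17 and -0.13 for IUCR and control. For IPCR and IUCR the values were -0.01, 0.18 and 0.19. Arrays of different letters were not compared in this way, so these values cannot settle whether the letters pair the arrays. With the mean of its probe sets Pmm1 differed by -0.35 in day 450 IPCR and -0.20 in IUCR. After quantile normalization Ugt2b1 differed by 0.81 and Ccdc80 by 0.35 in day 450 IPCR. At day 21 Pmm1 was called only with all 15 arrays in the fit (0.31, limma adjusted p = 0.0410). Ptprt at day 21 turned to -0.016 after quantile normalization and -0.0051 after median centring, and ran from -0.022 to 0.076 when an array was left out, while Ltc4s ran from -0.067 to 0.16. The other causes were not tested. Med14, Ptprt and Acbd7 are too dim for the filter at the median signal and have no value there.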
